A study of Arabidopsis thaliana with 25 samples.

Results

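The genes by which Arabidopsis roots take up and reduce inorganic nitrogen were examined in root RNA-Seq libraries from a long-term phosphorus (P) fertilization soil. They were 10 genes, chosen by locus identifier from the 27206 genes counted: the nitrate transporters NRT1.1 (AT1G12110), NRT2.1 (AT1G08090), NRT2.4 (AT5G60770) and NRT2.5 (AT1G12940), the transporter partner NRT3.1 (AT5G50200), the nitrate reductases NIA1 (AT1G77760) and NIA2 (AT1G37130), the nitrite reductase NIR1 (AT2G15620), and the ammonium transporters AMT1;1 (AT4G13510) and AMT1;3 (AT3G24300). All 10 were found in the counts. Their levels were compared between libraries, between soils and between genotypes, and with other genes of nitrogen metabolism.

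The plants were 8 weeks old, and each library came from 1 root system. Col-0 is the wild type, phf1 is mutated in a gene that phosphate transporters need to leave the endoplasmic reticulum, and phr1 phl1 is mutated in PHR1 and PHL1, transcription factors of the phosphate starvation response. Soils of 3 fertilization histories were used, called low, medium and high soil, and low+P (or low soil with P added) was low soil given 12.6 mg of P per pot as potassium phosphates, so that it also received potassium. Each soil history gave 3 libraries of Col-0 and 3 of phf1, low+P gave 2 of each, and phr1 phl1 was represented by 2 low libraries and 1 labelled low+P. The mutants are mutated in the whole plant, and each was used as 1 line. The counts name the group of a library but not its replicate, so the letters A, B and C given to its libraries have no order.

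Nitrate enters root cells with protons through low-affinity and high-affinity carriers, is reduced to nitrite in the cytosol by nitrate reductase, and is reduced further to ammonium in plastids by nitrite reductase. Ammonium enters directly through AMT transporters and is assimilated by glutamine synthetase. NRT1.1 also senses nitrate, NRT2.1 needs NRT3.1 at the plasma membrane, and NRT2.4 and NRT2.5 are best known as carriers of nitrogen-starved roots. Phosphate and nitrate signals meet in the HHO (NIGT1) repressors, whose genes PHR1 can activate and which bind GAATC and GAATATTC in promoters of NRT2 genes.

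The promoters of the NRT2 genes are shown because HHO repressors are known to bind promoters of this family, and those of NRT2.4 and NRT2.5 hold more matches to the HHO motif than any other of the 10 genes. Sequence and annotation are RefSeq's of TAIR10.1, and each stretch runs from 20 bases before the first to 20 bases after the last match in the 500 bases before the annotated gene start, on the gene's strand, with matches to GAATC (or GATTC, its other strand) in capitals. They lie at chr1:2523933-2524020 for NRT2.1, chr5:24444184-24444304 for NRT2.4 and chr1:4415980-4416191 for NRT2.5, all on the plus strand and in no annotated gene.
NRT2.1: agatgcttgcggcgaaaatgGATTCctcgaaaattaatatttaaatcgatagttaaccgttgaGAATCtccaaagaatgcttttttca
NRT2.4: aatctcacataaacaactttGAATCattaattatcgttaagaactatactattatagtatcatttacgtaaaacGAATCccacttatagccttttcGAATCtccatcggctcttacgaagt
NRT2.5: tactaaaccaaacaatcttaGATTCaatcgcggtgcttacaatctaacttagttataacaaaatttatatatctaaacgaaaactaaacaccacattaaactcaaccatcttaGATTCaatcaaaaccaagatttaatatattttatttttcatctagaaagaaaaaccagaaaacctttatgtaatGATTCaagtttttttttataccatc

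On both strands of these 500-base windows, GAATC occurred in 9 of the 10 genes, all but NIA2, and in 64.3% of the 26718 gene promoters of the same length. At least 3 matches occurred in 2 of the genes, NRT2.4 and NRT2.5, and in 11.3% of promoters. The motif GNATATNC, called P1BS and bound by PHR1, occurred in 1 of the 10 genes, NRT2.4, and in 10.7% of promoters. Its match, in capitals here, starts 230 bases before the gene at chr5:24444115-24444162 and has the letters of GAATATTC, so the HHO and PHR1 motifs overlap in it.
NRT2.4 P1BS: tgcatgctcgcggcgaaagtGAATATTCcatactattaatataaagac
A match is a run of letters and not a shown binding site, and nothing about a factor follows from a window without one.

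Counts of NRT2.1 could include reads of its neighbour NRT2.2. Of the 2062 windows of 50 bases in the NRT2.1 transcript, 174 (8.44%) also occurred in NRT2.2. The longest shared stretch of 170 bases lies at chr1:2524520-2524689 on the plus strand in NRT2.1 and at chr1:2528534-2528703 on the minus strand in NRT2.2.
Shared stretch: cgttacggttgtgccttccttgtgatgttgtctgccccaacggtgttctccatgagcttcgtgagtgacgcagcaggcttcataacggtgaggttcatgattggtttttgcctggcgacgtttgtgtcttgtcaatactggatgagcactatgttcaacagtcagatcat
NRT2.2 itself was counted at 0 to 5.04 CPM in 24 libraries and at 16.5 CPM in Col-0 low library C, against 2.65 to 385 CPM for NRT2.1. For NRT2.5, 18 windows (1%) occurred elsewhere, and no window of the other 8 genes did. AMT1;1 overlaps an annotated antisense RNA (AT4G13505), and the libraries were not stranded, so reads of the pair cannot be told apart.

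Libraries held 2368981 to 7408960 counts, so that 1 CPM, the unit of gene counts scaled to the same library total, stood for 2.37 to 7.41 reads. Of the 8 root markers checked, all had a mean of at least 1 CPM, and 4 were above 0 in every library. The summed level of 17 genes of green tissue ranged from 95.5 to 2474 CPM and was highest in phf1 medium and in phf1 high library A. A pair of libraries stood apart from the rest, Col-0 low library C and Col-0 medium library A, which differed from the median library by a mean of 0.81 and 0.65 on the log2 scale against 0.24 to 0.55 in the others. PHR1 was at 31.9 and 37.9 CPM in phr1 phl1 low and, where the label was phr1 phl1 low+P, at 73.6 CPM, inside the 49.0 to 77.9 CPM of the other genotypes. That library therefore goes against its label and is called by it, and it enters no comparison of a pair of groups, but it forms a group of its own in the tests of any difference across 6 and 10 groups.

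Per kilobase of transcript, as a mean over the 10 groups, NIA1 was the most abundant of the genes at 206 CPM per kb. NIA2 followed at 97.5, NRT1.1 at 82.9 and NIR1 at 62.8 CPM per kb. AMT1;1, NRT3.1 and NRT2.1 lay at 45.2, 42.7 and 33.0 CPM per kb, and AMT1;3 at 10.8. The starvation carriers NRT2.5 and NRT2.4 were lowest, at 5.53 and 1.04 CPM per kb. The 8 genes other than NRT2.4 and NRT2.5 had counts in every library.

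The 2 libraries that stood apart were also the extremes of these genes. Col-0 low library C held the highest value of 7 of the 10 genes, all but NRT2.1, NIA1 and NIA2. Col-0 medium library A held the lowest value of all 10, shared with other libraries at 0 for NRT2.4 and NRT2.5. After C, the libraries with the highest mean log2 level of the 10 genes were phf1 high library B and phf1 medium library A. Where leaving out library C or library A moved a result, the value without it is given.

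**Figure D1:**
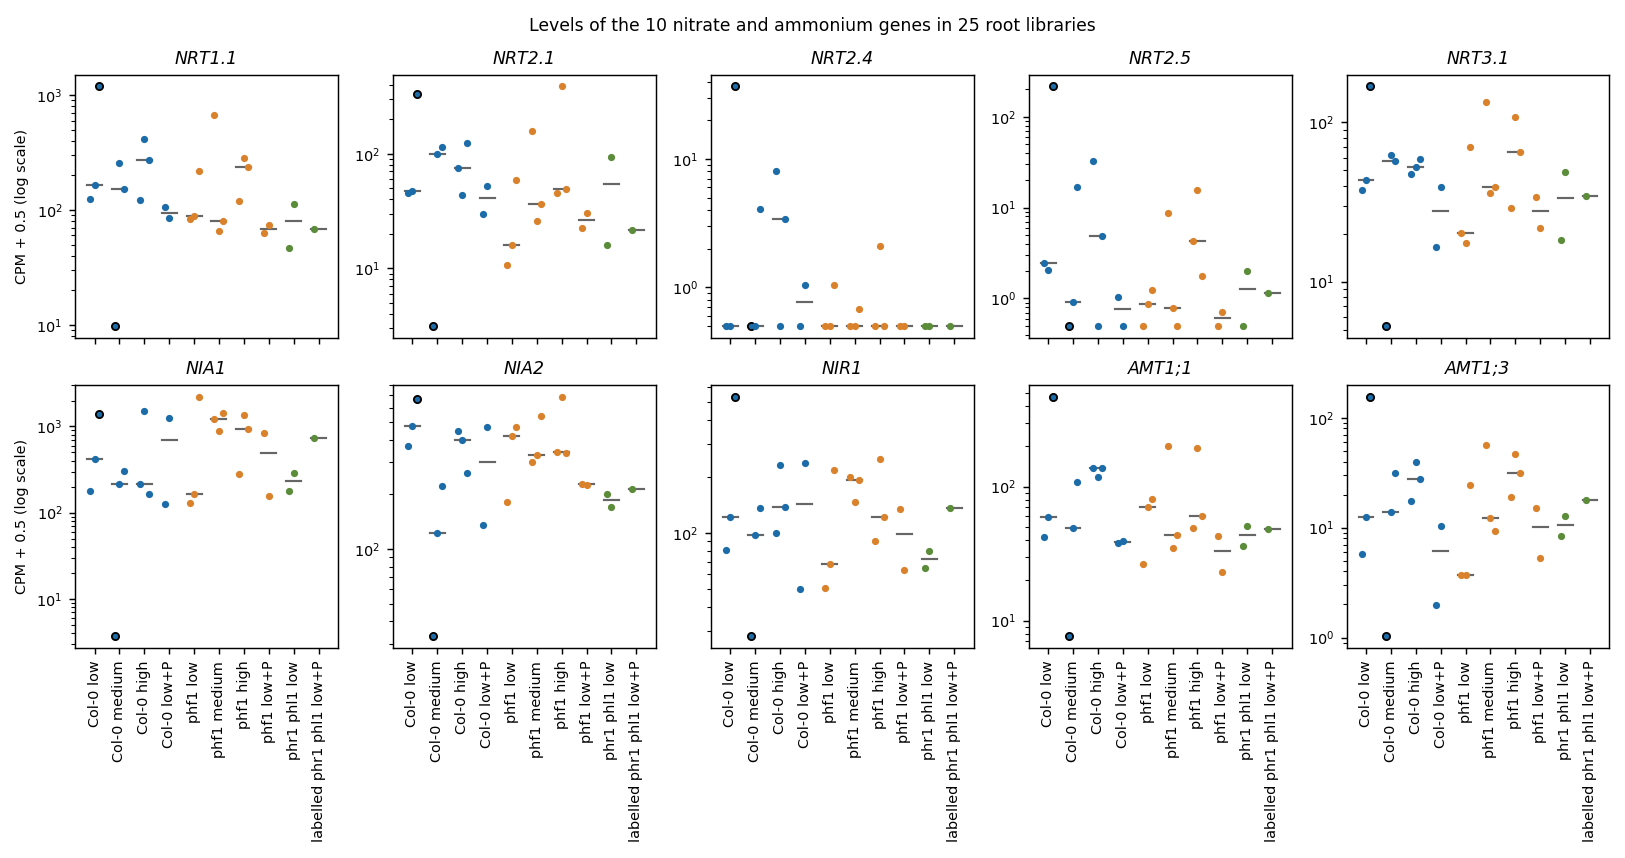
Level of each of the 10 genes in the 25 libraries, in CPM + 0.5 on a log axis, by group. Points are libraries, coloured by genotype (blue Col-0, orange phf1, green phr1 phl1), bars are group medians, and black rims mark Col-0 low library C and Col-0 medium library A, which lie at the top and the bottom of most panels.

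NRT1.1, the dual-affinity nitrate carrier and sensor, was at 124, 165 and 1189 CPM in Col-0 low. In the other Col-0 soils it was at 9.29, 255 and 153 CPM in medium, 122, 413 and 269 CPM in high, and 105 and 84.4 CPM in low+P. In phf1 it was at 82.6, 87.2 and 220 CPM in low, 677, 65.6 and 80.1 CPM in medium, 119, 281 and 238 CPM in high, and 63.0 and 72.8 CPM in low+P. In phr1 phl1 low it was at 46.5 and 112 CPM. The 3 Col-0 low libraries lay above both Col-0 low+P libraries and above both phr1 phl1 low libraries, and A and B did so by far less than C.

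NRT2.1, the main high-affinity nitrate carrier of roots, was at 44.7, 47.2 and 333 CPM in Col-0 low and at 29.2 and 51.8 CPM for Col-0 with P added. In Col-0 medium it was at 2.65, 99.4 and 114 CPM and in high at 73.9, 43.0 and 125 CPM. In phf1 it was at 10.2, 15.5 and 58.9 CPM in low, 157, 25.5 and 36.1 CPM in medium, 45.4, 385 and 48.3 CPM in high, and 21.8 and 30.0 CPM in low+P. The phr1 phl1 low libraries were at 15.5 and 92.2 CPM. Each low soil group of this gene held 1 library above the others, and the ranges of Col-0, phf1 and phr1 phl1 in low soil overlapped.

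NRT3.1, which NRT2.1 needs to reach the membrane, was at 37.0, 42.9 and 167 CPM in Col-0 low, at 15.9 and 38.5 CPM for Col-0 with P added, and at 19.8, 16.9 and 69.6 CPM in phf1 low. Over all libraries it ranged from 4.78 to 167 CPM, with a median of 38.7.

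NRT2.5, a high-affinity carrier of starved roots, was at 215 CPM in Col-0 low library C and at most 32.1 CPM in the other 24 libraries. Libraries A and B of the same group were at 1.99 and 1.53 CPM, which are 8 and 5 reads. The next highest values were 32.1 CPM in Col-0 high library A, 16.4 CPM in Col-0 medium library C and 15.2 CPM in phf1 high library B. In 7 libraries NRT2.5 had no read, where the count of 0 allows up to 3 counts, or 0.518 to 0.957 CPM in those libraries. The gene was thus above 10 CPM in single libraries of different soils and both main genotypes, and in no group were all its libraries above 10 CPM.

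NRT2.4 had 174 reads in all, of which 112 (36.2 CPM) came from Col-0 low library C. Libraries A and B of that group had none, and 17 of the 25 libraries had none. The other values above 1 CPM were 7.60 and 2.88 CPM in Col-0 high libraries A and C, 3.60 CPM in Col-0 medium library C and 1.59 CPM in phf1 high library B. Every library with more than 1 CPM of NRT2.4 also had more than 4 CPM of NRT2.5. Fold changes of NRT2.4 and NRT2.5 are not given, because they rest on groups at or near 0.

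NIA1, 1 of the nitrate reductases, had the widest range of the genes counted in every library, from 3.18 to 2209 CPM. It was at 176, 415 and 1401 CPM in Col-0 low, 3.18, 212 and 308 CPM in medium, 213, 1501 and 166 CPM in high, and 127 and 1261 CPM in low+P. In phf1 it was at 129, 164 and 2209 CPM in low, 1218, 874 and 1433 CPM in medium, 277, 1346 and 939 CPM in high, and 831 and 155 CPM in low+P. In phr1 phl1 low it was at 179 and 291 CPM, and at 739 CPM where the label was phr1 phl1 low+P. The highest library exceeded the lowest by 1.64 times in phf1 medium and by 4.86 to 96.6 times in the other 7 groups of Col-0 and phf1.

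NIA2, the other nitrate reductase, was the steadiest of the genes. It was at 370, 476 and 672 CPM in Col-0 low and at 32.6, 122 and 223 CPM in Col-0 medium, and these groups did not overlap. Col-0 high, at 444, 395 and 262 CPM, overlapped with low and not with medium, and Col-0 low+P was at 136 and 468 CPM. In phf1 it was at 181, 419 and 467 CPM in low, 299, 330 and 537 CPM in medium, 341, 687 and 337 CPM in high, and 228 and 224 CPM in low+P. The phr1 phl1 low libraries were at 200 and 170 CPM, below all 3 Col-0 low libraries.

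The share of NIA1 in the counts of both nitrate reductases ranged from 8.89% in Col-0 medium library A (95% Wilson interval 5.16 to 14.9%) to 82.6% in phf1 low library C (81.9 to 83.2%). In Col-0 low it was 32.3%, 46.6% and 67.6%, and in phf1 low 41.6%, 28.1% and 82.6%. In the 3 phf1 medium libraries it was 80.3%, 72.6% and 72.7%, and in Col-0 medium 8.89%, 63.5% and 58.0%. The shares lay farther apart in the other groups of 3 libraries. The intervals cover counting error only.

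**Figure D2:**
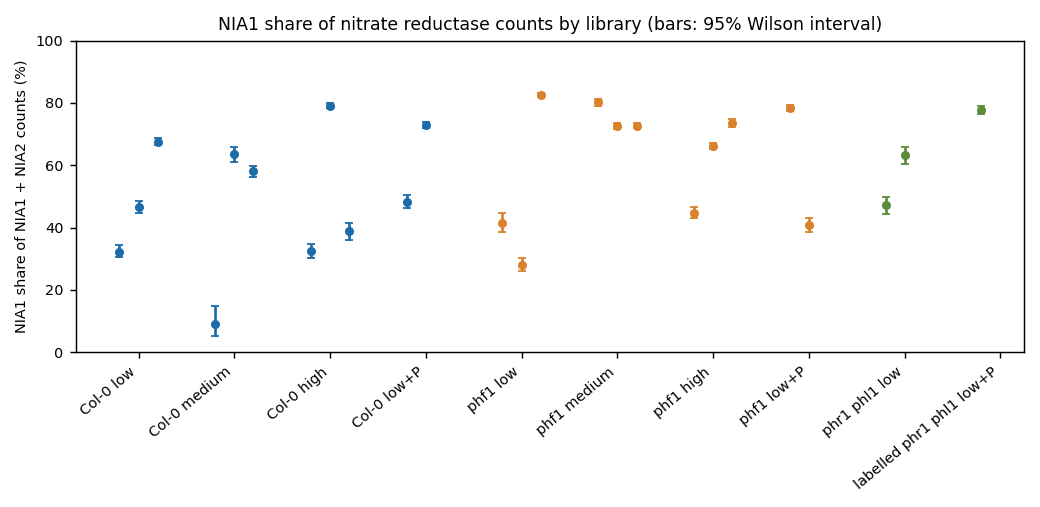
Share of NIA1 in the summed counts of NIA1 and NIA2 for each library, in percent, by group, with 95% Wilson intervals as bars. The libraries of most groups lie far apart, from 32.4 to 79.2% in Col-0 high, and the 3 phf1 medium libraries lie between 72.6 and 80.3%.

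NIR1, the plastid nitrite reductase, was at 80.5, 120 and 533 CPM in Col-0 low, at 49.4 and 235 CPM for Col-0 with P added, and at 64.3 and 79.3 CPM in phr1 phl1 low. In phf1 it was at 50.1, 67.4 and 216 CPM in low and 200, 145 and 191 CPM in medium. Col-0 low library C was the highest in NIR1 and phf1 low library C in NIA1.

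AMT1;1, a high-affinity ammonium carrier of root epidermis and hairs, was at 41.5, 58.5 and 466 CPM in Col-0 low and 37.7 and 38.9 CPM for Col-0 with P added, which did not overlap. In Col-0 high it was at 136, 118 and 136 CPM, the closest agreement of 3 libraries for this gene. In Col-0 medium it was at 7.16, 48.8 and 107 CPM, in phf1 low at 26.2, 69.6 and 80.1 CPM, and in phr1 phl1 low at 35.7 and 50.1 CPM. AMT1;3, a carrier of the same kind, was at 5.22, 12 and 155 CPM in Col-0 low, 1.48 and 9.89 CPM for Col-0 with P added, and 3.19, 3.24 and 23.8 CPM in phf1 low.

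When the 10 groups were ordered by their median, neighbouring groups overlapped in 7 to 9 of the 9 neighbouring pairs for each gene. NIA2 was the gene with the fewest overlaps, 7, and its order ran from 476 CPM in Col-0 low to 122 CPM in Col-0 medium. The highest median lay in Col-0 high for NRT1.1, NRT2.4, NRT2.5 and AMT1;1, in phf1 high for NRT3.1 and AMT1;3, in phf1 medium for NIA1 and NIR1, and in Col-0 medium for NRT2.1. No order of the soils was common to the genes.

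Whether P supply changes these genes in the wild type was asked by comparing Col-0 low with low+P. With edgeR's quasi-likelihood test, calls at a Benjamini-Hochberg adjusted p below 0.1 over all genes were made for 0 of the 10 genes and for 0.00531% of all 18830 genes tested. Of the 10, 4 (NRT1.1, NRT2.5, AMT1;1 and AMT1;3) had an unadjusted p below 0.05, as did 7.27% of all genes, and DESeq2 called none of them and 1.54% of all genes. The log2 fold change (low over low+P) was 2.45 (SE 0.98, edgeR adjusted p = 0.629) for NRT1.1, 2.39 (SE 0.99) for AMT1;1 and 3.50 (SE 1.55) for AMT1;3. It was 1.91 (SE 1.09) for NRT2.1 and 1.69 (SE 0.84) for NRT3.1. The reductases had 0.07 (SE 1.34) for NIA1, 0.81 (SE 0.51) for NIA2 and 0.91 (SE 0.93) for NIR1. All 3 low soil libraries were above both low+P libraries for 3 of the 10 genes, NRT1.1, NRT2.5 and AMT1;1, as for 8.37% of all genes.

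These differences rested on library C. Without it the log2 fold change of NRT1.1 was 0.54, of AMT1;1 0.33, of AMT1;3 0.59 and of NRT2.1 0.15, and those of NIA1 and NIR1 were -1.23 and -0.50. NRT2.4 and NRT2.5 then no longer passed the filter on low counts. With library C and both of these genes included, the median log2 fold change of the 10 genes was 2.15, against 0.02 for all genes. Without C, 6 of the 8 genes counted in every library had a fold change above 0, between 0.15 and 0.59.

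In phf1, NRT1.1 alone of the 10 had all 3 low soil libraries above both low+P libraries, as had 1263 of all 18830 genes tested. Its log2 fold change was 0.89 (SE 0.91, edgeR adjusted p = 1). The values of the other genes counted in every library ranged from 0.06 (SE 1.37) for AMT1;3 to 0.81 (SE 0.93) for AMT1;1. No gene of the 10 was called or had an unadjusted p below 0.05, against 0% and 0.898% of all genes, and DESeq2 called none of any gene (0%). The difference between Col-0 and phf1 in this response was tested as an interaction. None of the 10 was called, nor had an unadjusted p below 0.05, against 0% and 3.9% of all genes, and DESeq2 called none of them and 0.0946% of all. The interaction of NRT1.1 was 1.56 on the log2 scale (SE 1.26, edgeR adjusted p = 1), and without Col-0 low library C it was -0.36.

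The genotypes were compared within low soil. For phf1 against Col-0, edgeR called 0 of the 10 genes and 0.00531% of all. An unadjusted p below 0.05 was reached by NRT1.1, NRT2.1, NRT2.4 and NRT2.5, and by 4.65% of all genes. NRT2.4 and NRT2.5 passed the filter on low counts here only with Col-0 low library C. DESeq2 called none of the 10 and 0.155% of all. The log2 fold change (phf1 over Col-0) was -2.44 (SE 0.96, edgeR adjusted p = 0.938) for NRT2.1 and -2.04 (SE 0.82) for NRT1.1. It was -2.60 (SE 1.26) for AMT1;3, -1.81 (SE 0.83) for AMT1;1, -1.30 (SE 0.72) for NRT3.1 and -1.25 (SE 0.82) for NIR1. The nitrate reductases had 0.19 (SE 1.2) for NIA1 and -0.57 (SE 0.45) for NIA2. The groups did not overlap for 1 of the 10, NRT2.5, with phf1 lower, as for 3.88% of all genes. NRT2.5 had 0, 1 and 4 reads in phf1 low and 8, 5 and 665 in Col-0 low.

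Without Col-0 low library C, the log2 fold changes of NRT1.1 and NRT2.1 in this comparison were -0.12 and -0.67. Those of AMT1;1, AMT1;3 and NIR1 were then 0.26, 0.31 and 0.17, and that of NIA1 was 1.49. NIA1 in phf1 low rested on its own library C, and without that library its log2 fold change was -2.23.

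By their labels, the phr1 phl1 low and Col-0 low samples share no field plot, so genotype and plot cannot be told apart in comparing them. For phr1 phl1 against Col-0 in low soil, edgeR called 0 of the 10 genes and 0% of all genes. NRT1.1, NRT2.5, NIA2 and AMT1;1 had an unadjusted p below 0.05, as did 7.54% of all genes, and DESeq2 called none of the 10 and 1.04% of all. All 10 fitted differences were below 0. The log2 fold change (phr1 phl1 over Col-0) was -2.73 (SE 0.99, edgeR adjusted p = 0.639) for NRT1.1 and -1.45 (SE 0.52, edgeR adjusted p = 0.639) for NIA2. It was -2.22 (SE 0.98) for AMT1;1, -2.60 (SE 1.5) for AMT1;3, -1.83 (SE 0.97) for NIR1, -1.56 (SE 1.42) for NIA1, -1.5 (SE 1.08) for NRT2.1 and -1.39 (SE 0.84) for NRT3.1. Both phr1 phl1 libraries were below all 3 Col-0 libraries for 4 of the 10 genes, NRT1.1, NRT2.5, NIA2 and NIR1, as for 14% of all genes. NRT2.4 and NRT2.5 count among the 10 here only with library C, without which they did not pass the filter on low counts.

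NIA2 was the gene of this comparison that depended least on library C, with a log2 fold change of -1.12 without it. That of NRT1.1 was then -0.82, and those of NRT2.1 and AMT1;3 were 0.25 and 0.30. Summed root markers were 171 and 205 CPM in phr1 phl1 low and 153 to 532 CPM in Col-0 low, highest in library C, and their part in the result was not tested. In whole roots, fewer cells of a type and less RNA per cell cannot be told apart.

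**Figure D3:**
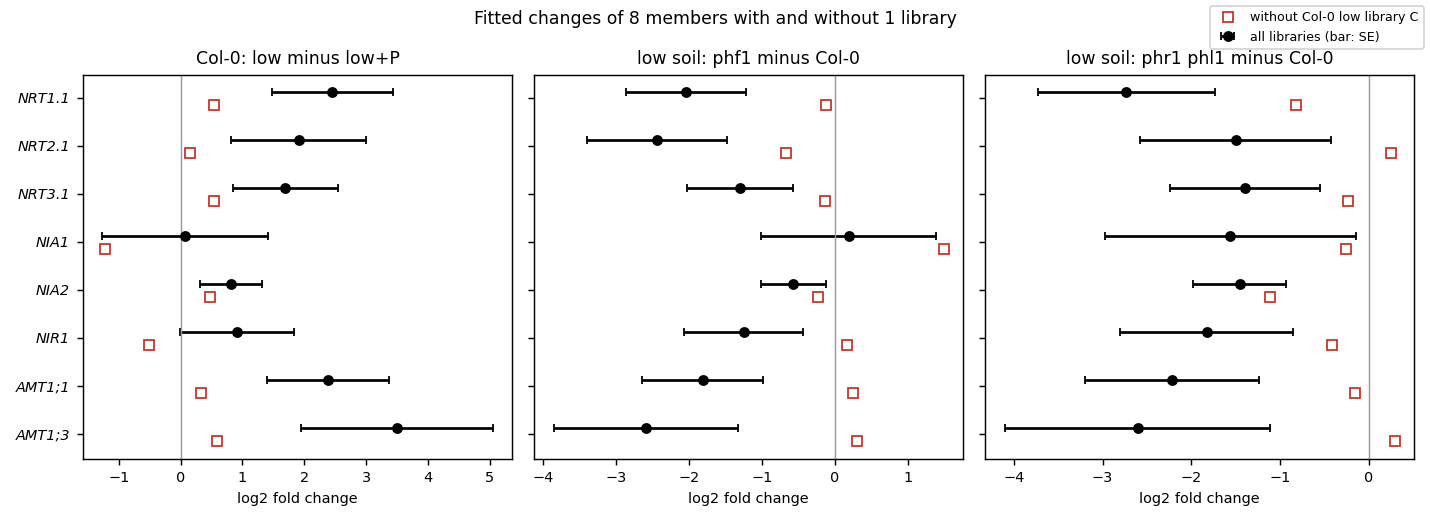
Log2 fold changes of the 8 genes counted in every library, in 3 comparisons of the low soil, with all libraries (black points, bars are SE) and without Col-0 low library C (red open squares). With all libraries NRT1.1 is at 2.45, -2.04 and -2.73 in the panels from left to right, and without C at 0.54, -0.12 and -0.82.

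Soil history was compared within each genotype. For Col-0 low against medium soil, edgeR called 0 of the 10 genes and 0.00541% of all. NIA2 alone had an unadjusted p below 0.05 (7.91% of all genes), with a log2 fold change of 2.1 (SE 0.64, edgeR adjusted p = 0.484). DESeq2 called NIA2 in this comparison (log2 fold change 2.11, DESeq2 adjusted p = 0.0587) and 2.04% of all genes. All 3 low soil libraries were above all 3 medium soil libraries for NIA2 alone of the 10, as for 816 of all 18469 genes tested. The NIA2 difference was 1.74 without Col-0 low library C and 1.66 without Col-0 medium library A. Without library A the other genes counted in every library had fold changes of 0.57 for NRT2.1 to 1.56 for AMT1;3, and without library C of -0.82 for AMT1;3 to 0.75 for NIA1. For the 8 genes counted in every library, low soil was the higher soil in 8 with all libraries and in 4 without library C.

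For Col-0 low against high soil, no gene of the 10 was called or had an unadjusted p below 0.05, against 0.00541% and 6.08% of all genes, and DESeq2 called none of them and 0.855% of all. Low soil was the higher soil in 8 of the 8 genes with all libraries and in 1, NIA2, without library C.

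In phf1, 9 of the 10 genes passed the filter on low counts, all but NRT2.4. Low against medium soil gave no call and no unadjusted p below 0.05 among them, against 0% and 3.17% of all genes, and DESeq2 called none of them and 0.0162% of all. Low against high soil gave no call among them and 0% of all genes, and NRT2.1 and NRT2.5 had an unadjusted p below 0.05, as did 2.89% of all genes. DESeq2 called none of the 9 there and 0.0324% of all. The log2 fold change of NRT2.1 (low over high) was -2.38 (SE 0.99, edgeR adjusted p = 0.999), and without phf1 high library B it was closest to 0, at -0.70. In phf1, 0 of the 8 genes counted in every library were higher in low than in medium soil and 1, NIA1, was higher in low than in high soil, whereas in Col-0 all 8 were higher in low soil. Without library C, low soil stayed the higher soil in Col-0 in 4 of the 8 genes against medium and in 1 against high soil. With each phf1 library left out in turn, the number in phf1 ranged from 0 to 3 against medium and from 0 to 4 against high soil. The difference between the genotypes in these directions was not tested.

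Averaged over the 4 soils, phf1 and Col-0 differed in none of the 10 genes by edgeR (0.0714% of all genes called). NRT2.4 had an unadjusted edgeR p below 0.05 (12.4% of all genes), 0.0205 with all libraries and 0.9998 without Col-0 low library C. DESeq2 called none of the 10 and 3.15% of all. The fitted differences of the 8 other genes than NRT2.4 and NRT2.5 ranged from -0.52 for NRT2.1 to 0.74 for NIA1 on the log2 scale, with SE of 0.27 to 0.67. Without Col-0 low library C the differences of NRT1.1, NRT3.1, NIR1, AMT1;1 and AMT1;3 turned from below 0 to 0.02, 0.26, 0.19, 0.11 and 0.53, that of NRT2.1 was -0.07 and that of NIA1 1.08. Without Col-0 medium library A those of NRT2.1 and NIA1 were -0.66 and 0.60.

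A test of any difference across the 6 low and low+P groups called 0 of the 10 genes with edgeR and 0% of all genes. NRT1.1 and NRT2.5 had an unadjusted p below 0.05, as did 3.6% of all genes. DESeq2's likelihood ratio test called NRT1.1 there (DESeq2 adjusted p = 0.0523) and 1.12% of all genes. The unadjusted edgeR p of NRT1.1 was 0.0276 with all libraries, 0.231 without Col-0 low library C and 0.023 without the library whose label PHR1 went against, and NRT2.5 did not pass the filter without C. Across all 10 groups edgeR called 0 of the 10 and 0.0153% of all genes, NRT2.4, NRT2.5 and NIA2 had an unadjusted p below 0.05 (7.27% of all genes), and DESeq2 called none of the 10 and 4.27% of all. Without Col-0 low library C those unadjusted edgeR p were 0.131, 0.168 and 0.1, and without Col-0 medium library A that of NIA2 was 0.0518.

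The spread between libraries of 1 group was large for these genes. Pooled over groups, the SD of log2(CPM + 0.5) within groups was 2.31 for NRT2.5, 1.96 for NIA1, 1.65 for NRT2.1, 1.64 for AMT1;3 and 1.43 for NRT1.1, against a median of 0.41 over the 15494 genes with a mean of at least 5 CPM. For NIA1 99.1% and for NRT2.1 98.2% of those genes had a smaller SD. NIA2 had the smallest of the 10, 0.75, and still 82.1% of genes were below it. Without the 2 libraries that stood apart the SDs were 1.49 for NIA1, 1.18 for NRT2.1 and 0.59 for NIA2, with a median of 0.36 over all those genes. The groups accounted for 26.4 to 36.2% of the variance of 9 of the genes and for 59.3% of that of NIA2, against a median of 37.1% over all those genes. Libraries of 1 group came from separate pots, whose plots, harvest times and batches could not be assigned.

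The genes varied together between libraries. Over the 28 pairs of the 8 genes counted in every library, Pearson's r of log2(CPM + 0.5) across the 25 libraries ranged from 0.59 to 0.92 with a median of 0.78, and the median Spearman rho was 0.68. With each library taken as its deviation from its group mean, the median r was 0.83. Between the libraries themselves, without Col-0 low library C and Col-0 medium library A, the median r was 0.62 and the lowest 0.20. The median r of each of the 10 genes with the 15485 other genes of at least 5 CPM lay between -0.04 and 0.06. That median pools positive and negative r, so it does not show whether the covariation was particular to the 10 genes. Of the root markers described below, some were as close, such as SCR with NRT3.1 (r = 0.90), and SHR and WOL were not. The libraries share groups and totals, so these values are descriptions.

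The closest pairs followed known partnerships in part. NRT3.1 was closest to AMT1;3 (r = 0.92, rho = 0.85) and NRT2.1 to its partner NRT3.1 (r = 0.92, rho = 0.89). NIA1 was closest to NIR1, which acts after it (r = 0.87, rho = 0.90, and r = 0.90 without the 2 libraries that stood apart). NRT1.1 was closest to NRT3.1 (r = 0.90), AMT1;1 to NRT1.1 (r = 0.89) and NRT2.4 to NRT2.5 (r = 0.84, rho = 0.50). The lowest values were those of NIA1 with NRT2.4 and NRT2.5, 0.18 and 0.20, which were -0.04 and -0.06 without the 2 libraries. NIA1 and NIR1 thus varied with each other more than NIA1 did with the high-affinity nitrate carriers (NIA1 with NRT2.1 r = 0.59), a difference that was not tested.

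**Figure D4:**
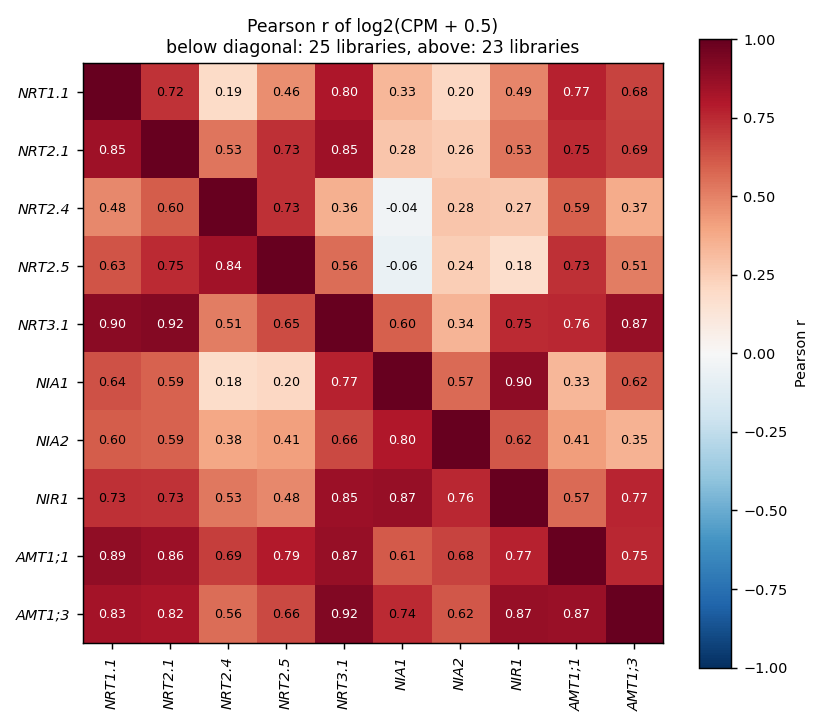
Pearson's r between the 10 genes in log2(CPM + 0.5). Cells below the diagonal are over the 25 libraries, and cells above it are over the 23 libraries without Col-0 low library C and Col-0 medium library A. NRT2.1 with NRT3.1 is 0.92 below and 0.85 above the diagonal, and NIA1 with NRT2.5 is 0.20 below and -0.06 above.

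Among the 15485 other genes, those most like NRT2.1 across the 25 libraries were GSR2 (GLN1;2), a cytosolic glutamine synthetase (r = 0.92, rho = 0.91), RHD6, a transcription factor of root hair formation (r = 0.89, rho = 0.82), and AT1G79470 (r = 0.88). Those most like AMT1;1 were ACR12 (r = 0.94), GSR2 (r = 0.92) and AT5G66390 (r = 0.91). Those most like NIA1 were RBP-DR1 (r = 0.93), AT1G53380 (r = 0.92) and AT3G13760 (r = 0.90), and those most like NRT1.1 were AT1G62660, SIAR1 and ABCG34 (each r = 0.92).

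Of the 8 root markers, 6, of several cell types, had r of 0.70 to 0.81 with NRT2.1 across the 25 libraries. CASP1, of the endodermal barrier, was at 6.46, 7.05 and 186 CPM in Col-0 low and at 0 in Col-0 medium library A, and its r with the 10 genes ranged from 0.59 for NIA2 to 0.90 for AMT1;3 (0.87 without the 2 libraries farthest from the CASP1 median). SCR, of the endodermis, PIN2, an auxin carrier of the root tip, and SMB, of the root cap, had r of 0.90, 0.82 and 0.85 with NRT3.1, and 0.52, 0.48 and 0.46 with NIA2. The vascular genes SHR and WOL went otherwise, at 33.3 and 62.4 CPM in library C, below A and B of its group, with r of -0.20 to 0.45 for SHR and -0.53 to -0.30 for WOL. Among the root hair markers, COBL9, needed for root hair growth, was at 55.0 CPM in Col-0 low library C, at 0 and 0.31 CPM in A and B of that group, and at 0 to 18.2 CPM in the other libraries. Its r with AMT1;3 was 0.81 (rho = 0.83, and r = 0.74 without the 2 libraries farthest from the COBL9 median), with NRT3.1 0.77, with AMT1;1 0.77 and with NRT2.1 0.73. With NIA1 it was 0.47 and with NIA2 0.30. EXPA7, an expansin of root hairs, gave 0.76 with AMT1;3, 0.77 with NIR1 and 0.35 with NIA2. COBL9 was at 0 in 5 of the 25 libraries and EXPA7 in 6, and the part of these cell types in the differences above was not tested. The summed genes of green tissue gave r between -0.37 and 0.09 with the 10 genes, and the difference of morning and evening clock genes gave -0.35 to 0.03.

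**Figure D5:**
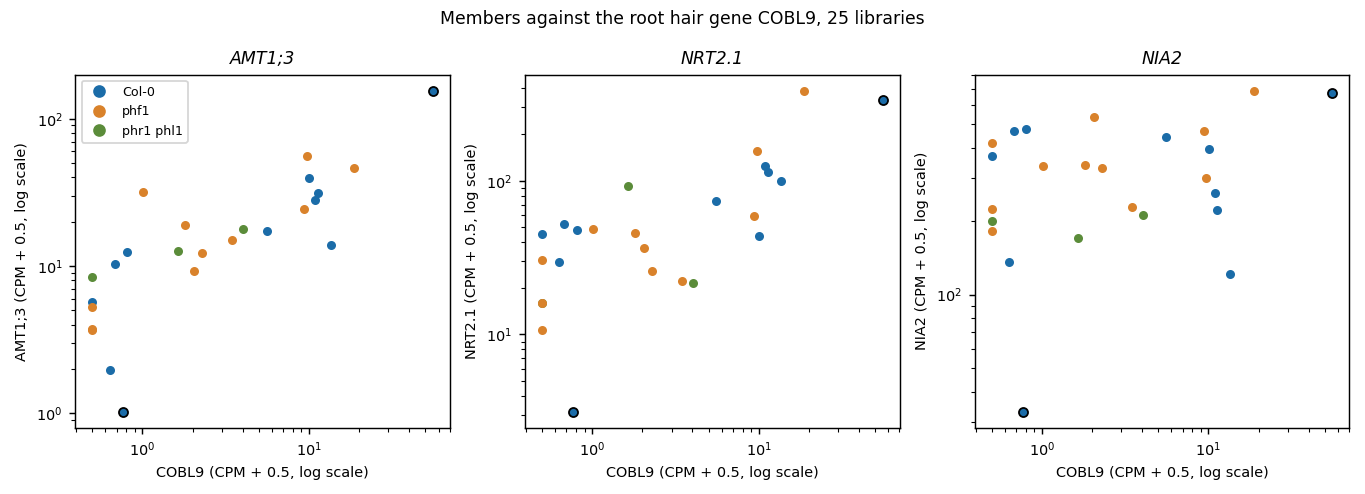
AMT1;3, NRT2.1 and NIA2 against COBL9 in the 25 libraries, both axes in CPM + 0.5 on log scales, coloured by genotype, with black rims on Col-0 low library C and Col-0 medium library A. AMT1;3 and NRT2.1 are higher in libraries with more COBL9 (r = 0.81 and 0.73), and NIA2 less so (r = 0.30).

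Other genes of the pathway were taken from 5 lists. In Col-0 low against low+P, none was called by edgeR, which had called 0.00531% of all genes. Of the 15 genes of ammonium assimilation 14 were tested, and 13 had a fold change above 0, with a median of 0.85 against 0.02 for all genes. GLN1;2, already named for its likeness to NRT2.1, had a log2 fold change of 3.08 (SE 1.19, edgeR adjusted p = 0.617), with 86.7, 154 and 1504 CPM in low soil and 55.7 and 92.6 CPM in low+P. DESeq2 called it (DESeq2 adjusted p = 0.0874), and as for the 10 genes its high value was that of library C. GDH2, a glutamate dehydrogenase, had 402, 424 and 583 CPM in low soil and 202 and 275 CPM with P added, a log2 fold change of 1.01 (SE 0.40). Its groups did not overlap, with low soil higher, as for 8.37% of all genes.

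Of the 18 other nitrate transporters 16 were tested, 9 of them with a fold change above 0 and a median of 0.43. NPF6.2, a low-affinity nitrate carrier known from leaf petioles, went the other way, with 9.94, 7.66 and 12.6 CPM in low soil and 77.3 and 33.6 CPM in low+P. Its log2 fold change was -2.48 (SE 0.59, edgeR adjusted p = 0.381), and DESeq2 called it (DESeq2 adjusted p = 0.0307). The groups did not overlap, with low soil lower, as for 2016 of all 18830 genes tested, and library C was close to A and B here. NPF2.13, a carrier of nitrate into leaf phloem, had -2.25 (SE 0.90). Of the 4 other ammonium transporters 2 were tested, AMT1;2 with 2.16 (SE 1.27) and AMT2;1 with 0.01 (SE 0.44). AMT1;2 was at 9.19, 7.66 and 140 CPM in low soil and at 9.58 and 15.7 CPM in low+P, so its difference lay in library C.

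All 9 genes for reductant and cofactors of the reductases had a fold change above 0 in this comparison, with a median of 0.47, and none had an unadjusted p below 0.05. The lowest p were those of PGD3, of the oxidative pentose phosphate pathway, with 0.84 (SE 0.58), and UPM1, of sirohaem synthesis, with 0.63 (SE 0.55). PGD3 was at 73.0, 66.8 and 277 CPM in low soil and 77.5 and 84.7 CPM in low+P. UPM1 was at 76.5, 95.3 and 249 CPM and at 73.0 and 117 CPM. In each, library C alone lay above both low+P libraries. The directions and medians of the lists are those with library C included. Of the 29 signalling genes and regulators 28 were tested, 15 with a fold change above 0 and a median of 0.00. CIPK23, a kinase that acts on NRT1.1, had 0.80 (SE 0.28) and its calcium sensor CBL1 1.39 (SE 0.52). For phr1 phl1 against Col-0 in low soil, all 14 assimilation genes tested had a fold change below 0, with a median of -1.37 against -0.03 for all genes, and none was called by edgeR. Genotype and field plot cannot be told apart in that comparison.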

How the data were processed

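The authors trimmed 50-base single-end reads of poly(A)-selected, non-stranded root libraries with Trimmomatic 0.36, mapped them to TAIR10 with HISAT2 2.1.0 and counted them per gene with featureCounts, for which no strand or multi-mapping setting is given. The deposited values are whole-number counts, not normalized, for 27206 nuclear protein-coding genes in 25 libraries, of 2368981 to 7408960 counts each, so that genes at 1 CPM rest on a few reads. Libraries were grouped by the group name of their column, and no column was without a group. The closest pair of libraries within a group had a median chi-square per gene of 1.24, where sampling alone gives 0.455, so none were merged. Pairs across groups were not checked in this way. The library labelled phr1 phl1 low+P lay close to phf1 low+P library A, at 136 and 134 CPM for NIR1 and 213 and 228 CPM for NIA2. They were at 21.0 and 21.8 CPM for NRT2.1, 739 and 831 CPM for NIA1, and 73.6 and 70.3 CPM for PHR1. In CPM, they were also close for NPF4.6 (477 and 476), CIPK23 (214 and 213), GDH2 (659 and 665) and PIN2 (28.7 and 29.1). They were apart for LHCB2.1, of green tissue (20.1 and 7.15). In phf1 low+P library B, GDH2 was at 241 and PIN2 at 3.13 CPM, but CIPK23 was at 220 CPM. Whether the library labelled phr1 phl1 low+P and phf1 low+P library A share a source was not tested. Both entered as separate libraries in the tests across groups and in the correlations over 25 libraries, which take them as independent. Per the labels, replicates of a group have different field plot numbers, which the columns do not carry, so p-values measure the spread between pots of different plots. Across groups, the labels give Col-0 and phf1 the same plots in low and in high soil, and partly the same in medium soil. Col-0 low shares part of its plots with Col-0 low+P and none with phr1 phl1 low. All groups were tested as independent, and where their plots differ, plot and group cannot be told apart.

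From the counts, CPM (to total counts, without TMM) were computed, and tests used R 4.3.3 and edgeR 4.0.16: filterByExpr, TMM and the quasi-likelihood test, with Benjamini-Hochberg adjustment over all genes tested. The 13 low and low+P libraries, the 11 Col-0, the 11 phf1 and all 25 libraries were each fitted together, with 18830, 18469, 18606 and 19603 genes. The standard error is the fold change over the root of its F statistic, and the prior count was 0.125. The alternatives were DESeq2 1.42.0, RLE factors, no filter, a mean of at least 1 CPM, all 25 libraries in 1 fit, each library left out, TMM-scaled CPM, Spearman's rho and deviations from group means. Where DESeq2 gave no adjusted p, none was used. The tests were tested on simulated counts whose biological coefficient of variation was set below the 0.39 to 0.46 fitted here. The simulation therefore does not show how often changes of these genes would be found.

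The members and lists were chosen with earlier results of these data known. Named were the 10 genes, in each list the genes called or else the 2 of lowest p in Col-0 low against low+P, the 3 genes most like NRT1.1, NRT2.1, NIA1 and AMT1;1, and PHR1, PHL1 and PHF1 to check labels. PHL1 was at 13.9 to 95.9 CPM and PHF1 at 9.00 to 46.9 CPM, neither lower in its mutant than in every Col-0 library. GDH2 and GLN1;2 came from this rule. Names, positions and sequences came from TAIR10.1, where 26719 of the 27206 identifiers and all 10 genes were matched.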

Additional observations from a re-analysis of the deposited data

How the results depend on the processing

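No paired analysis was possible because the columns of the counts carry no replicate number or plot. No member was called by edgeR under RLE factors, without a filter, at a mean of at least 1 CPM, in 1 fit of all libraries, or with any library left out. DESeq2 called 1 member each across the 6 low and low+P groups (NRT1.1) and in Col-0 low against medium soil (NIA2), and none in the other 10 tests. Over all genes, where edgeR called 0 to 14, DESeq2 called 209 across the 6 groups, 289 for Col-0 low against low+P, 29 for phf1 and 183 for phr1 phl1 against Col-0 in low soil, 16 for the interaction, 374 and 151 for Col-0 low against medium and high soil, 3 and 6 for phf1 low against medium and high soil, 592 for phf1 against Col-0 averaged over soils and 836 across 10 groups. The averaged genotype test called 14 genes, and 7 with RLE factors and 7 without a filter, and the 10-group test called 3, and 5 and 6. In 1 fit of all libraries, Col-0 low against low+P and against high soil called 0 genes where their own fits called 1. With each library left out, the counts ranged from 0 to 3 across the 6 groups, 0 to 1 for Col-0 low against low+P, 0 to 3 for phf1 and 0 to 1 for phr1 phl1 against Col-0, 0 to 1 for the interaction, 1 to 198 and 1 to 5 for Col-0 low against medium (198 without Col-0 medium library C) and high soil, 2 to 362 for the averaged test and 2 to 111 across 10 groups.

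Among the 8 genes counted in every library, directions changed under no alternative other than leaving out a library, and NRT2.4, whose folds are not given, also turned under DESeq2 in the interaction. For Col-0 low against low+P, the log2 fold change ranged from -1.23 to 2.37 for NIA1 and from -0.50 to 2.29 for NIR1. For phf1 against Col-0 in low soil it ranged from -2.23 to 1.49 for NIA1, -2.11 to 0.17 for NIR1, -2.29 to 0.26 for AMT1;1 and -4.21 to 0.31 for AMT1;3. For phr1 phl1 against Col-0 it ranged from -3.20 to 0.25 for NRT2.1 and -3.15 to 0.30 for AMT1;3. For phf1 against Col-0 averaged over soils it ranged from -0.95 to 0.02 for NRT1.1, -0.27 to 0.26 for NRT3.1, -0.39 to 0.19 for NIR1, -0.73 to 0.11 for AMT1;1 and -0.61 to 0.53 for AMT1;3. In the ranges just given for Col-0 and for low soil, Col-0 low C alone turned the directions, except those of NIA1. In the averaged comparison it alone turned those of NRT1.1 and AMT1;1, whereas NRT3.1, NIR1 and AMT1;3 turned without other libraries too. The number of the 8 genes counted in every library that were higher in low soil went from 8 to 6 for Col-0 low against low+P, from 8 to 4 against medium and from 8 to 1 against high soil without Col-0 low C. In phf1 low against low+P it went from 8 to 3 without phf1 low library C. Directions turned in phf1 against other soils too, where the number ranged from 0 to 3 against medium and from 0 to 4 against high soil. In phf1 low against medium soil the log2 fold change ranged from -1.61 to 0.86 for NRT1.1 and from -1.02 to 0.62 for AMT1;1. The cause was not tested. With totals scaled by TMM the median level of no member moved by as much as 1 SD.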

Other observations

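Some genes of the lists that the naming rule left out are given here, chosen after their values were seen. GLN1;4, a cytosolic glutamine synthetase, was called by DESeq2 between phr1 phl1 and Col-0 in low soil (log2 fold change -2.96, SE 0.92 and adjusted p = 0.634 with edgeR, DESeq2 adjusted p = 0.0435), with 18.7 and 36.0 CPM in phr1 phl1 and 62.1, 65.9 and 475 CPM in Col-0. NPF7.2, which retrieves nitrate from xylem sap, was called by DESeq2 between phf1 and Col-0 in low soil (log2 fold change -2.87, SE 0.71 and adjusted p = 0.938 with edgeR, DESeq2 adjusted p = 0.0394), with 4.15, 6.85 and 8.54 CPM in phf1 and 21.6, 36.5 and 79.9 CPM in Col-0. In both genes the groups did not overlap, with the mutant lower, as for 14% and 3.88% of all genes in these comparisons. Col-0 low library C was the highest in both. Averaged over the 4 soils, DESeq2 called NPF4.6, of the other nitrate transporters, and GDH1, both higher in phf1 than in Col-0, and 3.15% of all genes. NPF4.6 was at 192 CPM in Col-0 low library C, below A and B of that group at 425 and 348 CPM.

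NPF6.2 was also called by DESeq2 between Col-0 low and medium soil (log2 fold change -2.94, SE 0.81 and adjusted p = 0.484 with edgeR, DESeq2 adjusted p = 0.0211), with 92.6, 123 and 20.9 CPM in medium soil. GDH1 and GDH2, glutamate dehydrogenases, were called by DESeq2 between Col-0 low and high soil. The edgeR log2 fold changes (low over high) were 1.54 (SE 0.43, adjusted p = 0.688) for GDH1 and 1.92 (SE 0.56, adjusted p = 0.699) for GDH2.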
